A study of Mus musculus with 8 samples.

Results

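HTT ChIP-seq peaks of the cortex were compared between HttQ111/+ and Htt+/+ mice that had both received an antisense oligonucleotide (ASO) against Htt. The question was which HTT peaks were found in both genotypes under ASO and which in a single genotype. Peaks were classed by coordinates alone on chromosomes 1 to 19 of mm9. The HttQ111/+ ASO library held 39420 peaks and the Htt+/+ ASO library 39920, which together are 79340 of the 174449 peaks in the 4 lists of the series. A peak that overlapped a peak of the other library by at least 1 bp was joined with it into a shared site. This gave 2091 shared sites, 37321 HttQ111/+ only peaks and 37822 Htt+/+ only peaks. The mice were males of 4 months, either Htt+/+ or heterozygous for the HttQ111 knock-in allele, which carries a lengthened CAG tract in Htt exon 1. In both groups 500 µg of a pan-huntingtin ASO was injected into the ventricle of 1 side, and cortex of that side was taken 4 weeks later. The other libraries of the series came from untreated mice of the same genotypes, which had neither an injection nor a control oligonucleotide, so that the injection and the lowering of HTT cannot be told apart between treated and untreated cortex. The antibody was EPR5526. The labels give 3 mice per pool and the study's methods a smaller number, so the pool size is uncertain, and every group was 1 pooled library. No difference between the genotypes can therefore be set against a spread between replicates, no test between the groups was made, and intervals are 95% Wilson intervals that cover counting error only.

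Huntingtin (HTT) is a large, mostly cytoplasmic scaffold protein that is also found in the nucleus, where it binds transcription factors and chromatin regulators such as REST, CREB-binding protein and Polycomb repressive complex 2. In Huntington's disease a lengthened CAG tract in exon 1 gives HTT a longer polyglutamine stretch, and the genes that mark striatal projection neurons fall early while cortical neurons are affected too. An ASO of this kind pairs with Htt RNA and directs its degradation by RNase H.

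The 2 libraries were shallow and were not alike. Reads recovered from the deposited fold enrichments and p-values gave 1.36 ChIP reads per kb in HttQ111/+ ASO and 1.22 in Htt+/+ ASO, and 87.1% and 79.4% of their peaks had 2 to 4 reads at the summit. HttQ111/+ ASO stood apart from the other 3 libraries of the series. It had the widest narrowest peak (287 bp, against 210 to 230 bp), the lowest highest fold enrichment (12.2, against 15.1 to 19.3) and the fewest peaks of at least 8 reads (512, against 1659 to 2445). A given number of reads also stood for different fold enrichments, since 3 reads over the genome-wide background were a fold of 4.41 in HttQ111/+ ASO and 5.47 in Htt+/+ ASO. Because tissue was pooled in bulk, fewer cells with HTT at a site and less HTT per cell cannot be told apart. Peak lists hold no RNA or protein levels, so neither the cortical origin of the tissue nor the lowering of HTT was checked here.

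Sequences are shown for genes and regions with a shared site. The first set gives the 200 bases before the start site of genes with a shared site within 1 kb, read along the gene, from the mm9 genome with CpG dinucleotides in capitals.
Car10 promoter (chr11:92959518-92959717): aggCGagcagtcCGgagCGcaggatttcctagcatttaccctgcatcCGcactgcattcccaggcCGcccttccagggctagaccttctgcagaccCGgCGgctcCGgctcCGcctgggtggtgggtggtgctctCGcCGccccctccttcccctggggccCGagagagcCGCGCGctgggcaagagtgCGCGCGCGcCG
Avpr1a promoter (chr10:121885355-121885554): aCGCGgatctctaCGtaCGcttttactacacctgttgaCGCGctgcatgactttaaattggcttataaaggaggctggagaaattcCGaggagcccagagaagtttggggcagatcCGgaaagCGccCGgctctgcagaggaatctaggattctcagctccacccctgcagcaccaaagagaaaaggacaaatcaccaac
Klk1b24 promoter (chr7:51443406-51443605): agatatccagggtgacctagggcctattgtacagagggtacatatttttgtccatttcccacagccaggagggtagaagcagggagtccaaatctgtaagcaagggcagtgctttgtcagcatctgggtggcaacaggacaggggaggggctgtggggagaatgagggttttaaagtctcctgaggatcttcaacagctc
The stretches were set by the start sites and not by the shared sites. The Car10 stretch lies inside its shared site and holds the summit. The Klk1b24 stretch overlaps the beginning of its site without the summit, and the Avpr1a stretch ends before its site begins. The promoter of Car10, a carbonic anhydrase-related protein of neurons, held 20 CpG, and that of Avpr1a, the vasopressin receptor V1a, held 10. Klk1b24, a kallikrein gene, had none in these 200 bases. The second set gives 200 bases at the summit of shared sites away from start sites, on the forward strand, again with CpG in capitals. Regions are named here by the gene with the nearest start site, which need not be a target.
RP23-108F2.6 region (chr17:36316048-36316247): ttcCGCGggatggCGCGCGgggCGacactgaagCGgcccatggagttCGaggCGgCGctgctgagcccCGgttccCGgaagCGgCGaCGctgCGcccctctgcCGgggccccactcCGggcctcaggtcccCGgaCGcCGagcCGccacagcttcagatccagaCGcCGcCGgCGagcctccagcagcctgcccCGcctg
Gm11733 region (chr11:117362241-117362440): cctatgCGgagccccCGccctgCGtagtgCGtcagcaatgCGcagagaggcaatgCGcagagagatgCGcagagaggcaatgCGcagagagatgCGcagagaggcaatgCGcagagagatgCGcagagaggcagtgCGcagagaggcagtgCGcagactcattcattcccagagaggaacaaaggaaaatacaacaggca
1700016C15Rik region (chr1:179652071-179652270): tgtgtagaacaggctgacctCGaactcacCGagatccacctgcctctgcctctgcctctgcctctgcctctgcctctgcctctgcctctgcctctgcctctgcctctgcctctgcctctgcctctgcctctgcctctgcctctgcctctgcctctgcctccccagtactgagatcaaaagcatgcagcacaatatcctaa
Efha1 region (chr14:58648920-58649119): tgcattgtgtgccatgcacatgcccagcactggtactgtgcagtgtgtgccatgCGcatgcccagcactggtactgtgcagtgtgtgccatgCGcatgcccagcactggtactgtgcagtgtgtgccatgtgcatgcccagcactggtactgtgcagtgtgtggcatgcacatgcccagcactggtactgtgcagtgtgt
The RP23-108F2.6 region held 27 CpG with a G+C of 76.0%, and it was CpG-rich although its position relative to the nearest protein-coding start site was -10655 bp, negative values being upstream. The 1700016C15Rik region held a run of TCTGCC, and the Efha1 and Gm11733 regions were built of longer tandem units. Sequence was not used to class the peaks.

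Few HTT peaks were found at the same place in both genotypes under ASO. Of HttQ111/+ ASO peaks 5.32% (5.11% to 5.55%) overlapped an Htt+/+ ASO peak, and of Htt+/+ ASO peaks 5.26% (5.04% to 5.48%) overlapped an HttQ111/+ ASO peak. The peaks covered 0.543% and 0.446% of the non-gap bases of chromosomes 1 to 19. Because 1 bp of overlap was enough, these shares are not the overlap of randomly placed peaks, which would be higher and was not computed. In the untreated libraries 9.83% of HttQ111/+ peaks overlapped Htt+/+ peaks and 10.6% the other way round. Single-genotype peaks were nearly equal in number, with an HttQ111/+ only to Htt+/+ only ratio of 0.987 (0.973 to 1.0). That balance came from weak peaks. Peaks of at least 5 reads numbered 5066 in HttQ111/+ ASO and 8225 in Htt+/+ ASO, a ratio of 0.616 (0.595 to 0.638). With at least 8 reads the numbers were 512 and 2445, a ratio of 0.209 (0.19 to 0.230). In untreated cortex the same ratio was 1.39 (1.30 to 1.48).

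Sharing depended on reads, and did so differently in the 2 lists. Among HttQ111/+ ASO peaks the shared percentage was 3.27% at 2 reads, 9.33% at 5 to 7 reads, 39.2% at 8 to 11 reads and 65% at 12 to 19 reads. Among Htt+/+ ASO peaks it was 4.30%, 5.81%, 7.10% and 10.8% in the same order. Most HttQ111/+ peaks of 12 reads or more thus had a partner in Htt+/+, while most Htt+/+ peaks of that strength had none in HttQ111/+. The totals differed far more than the shared numbers. At 8 to 11 reads 171 of 436 HttQ111/+ ASO and 140 of 1972 Htt+/+ ASO peaks were shared. At 12 to 19 reads these were 26 of 40 and 43 of 397. The percentages therefore follow the number of stronger peaks in each list. From 20 reads upward, 35 of 36 HttQ111/+ ASO peaks and 32 of 76 Htt+/+ ASO peaks were shared. The 29 shared sites with at least 20 reads in both libraries all had a high input background, as given below.

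**Figure D1:**
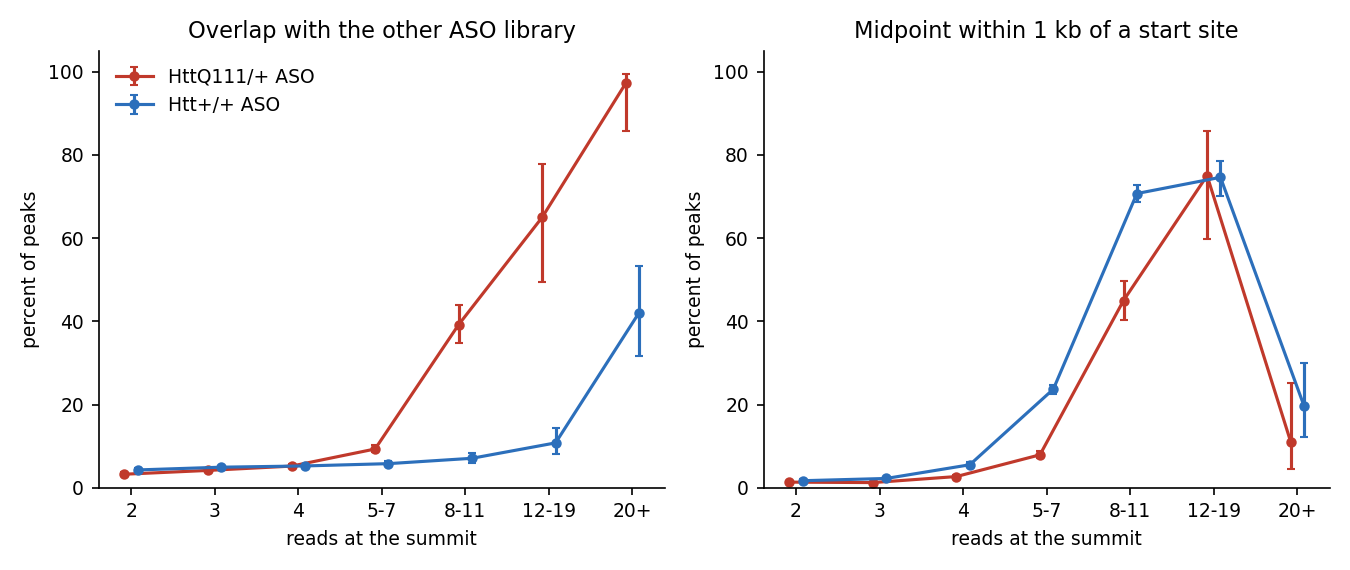
Percent of peaks of each ASO library that overlap the other library (left) and that lie within 1 kb of a protein-coding start site (right), by reads at the summit, with 95% Wilson bars. At 8 to 11 reads 39.2% of HttQ111/+ ASO and 7.10% of Htt+/+ ASO peaks were shared, and 45.0% and 70.7% were at start sites.

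The classes differed at start sites. Among HttQ111/+ only peaks 2.35% (2.2% to 2.51%) had their midpoint within 1 kb of a protein-coding start site, against 2.36% of non-gap bases, so that this class lay at start sites about as often as bases of the genome do. The share was 9.78% (9.48% to 10.1%) of Htt+/+ only peaks and 12.3% (11% to 13.8%) of shared sites. In counts these were 876 HttQ111/+ only peaks, 3698 Htt+/+ only peaks and 258 shared sites. At 8 reads or more the share was 37.9% of the 280 HttQ111/+ only peaks, 71.4% of the 2230 Htt+/+ only peaks and 53.4% of the 161 sites with 8 reads in both libraries. In untreated cortex 28.1% of the 4567 sites shared by the genotypes were at start sites. The input background was also higher there. MACS2 takes it from the merged input, and relative to the genome-wide value of the library its median was 4.68 at shared start-site sites in either library, 4.92 at Htt+/+ only and 1.92 at HttQ111/+ only peaks near start sites, with 1.0 over all HttQ111/+ only peaks. Among peaks with an input background of at most 5 times the genome-wide value, a limit chosen after the values were seen, the start-site shares were 7.11% of shared sites, 2.18% of HttQ111/+ only and 5.76% of Htt+/+ only peaks.

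**Figure D2:**
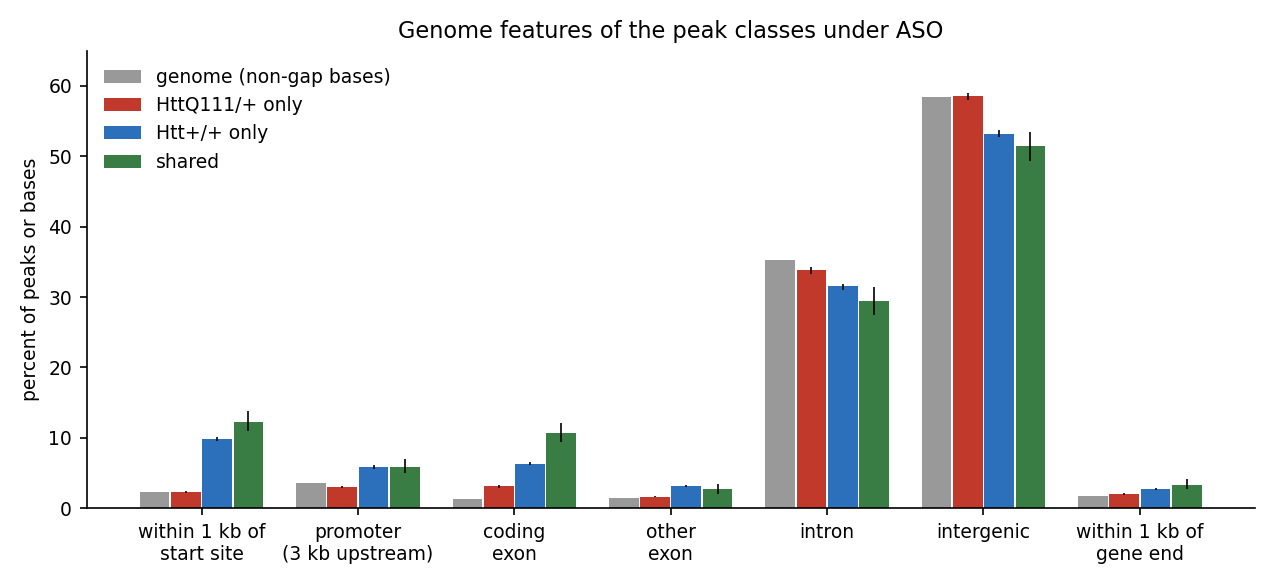
Percent of each peak class, and of non-gap bases, in each genome feature, with 95% Wilson bars. Intergenic shares were 58.5% of HttQ111/+ only peaks and 58.4% of bases, while 12.3% of shared sites lay within 1 kb of a start site and 10.7% in coding exons.

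Coding exon shares were lowest in HttQ111/+ only and highest in shared sites, and the other features did not all follow this order. Coding exons held 1.34% of bases, 3.08% of HttQ111/+ only, 6.32% of Htt+/+ only and 10.7% of shared midpoints. Promoters, taken as the 3 kb upstream of a start site, held 3.51% of bases and 2.98%, 5.86% and 5.88% of the classes. Non-coding parts of exons held 1.47% of bases, 1.64% of HttQ111/+ only, 3.18% of Htt+/+ only and 2.68% of shared midpoints. Introns held 33.8% of HttQ111/+ only, 31.5% of Htt+/+ only and 29.4% of shared midpoints, beside 35.3% of bases. Intergenic sequence held 58.5% of HttQ111/+ only, 53.2% of Htt+/+ only and 51.4% of shared midpoints. Weak peaks carried less of this pattern, though their coding exon shares kept the order. With 2 to 4 reads (in both libraries for shared sites), 60.8% of HttQ111/+ only, 59.4% of Htt+/+ only and 60.5% of shared midpoints were intergenic, and 1.52%, 2.74% and 2.95% were at start sites. Coding exons held 2.09%, 3.29% and 4.24% of these midpoints.

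Around start sites the peaks sat downstream. Shared sites reached 15.1% of the class per kb in the first 500 bp past the start site and 4.02% per kb in the 500 bp before it. Htt+/+ only peaks reached 11.9% and 4.09% per kb at those places. HttQ111/+ only peaks reached 1.88% and 0.965% per kb.

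**Figure D3:**
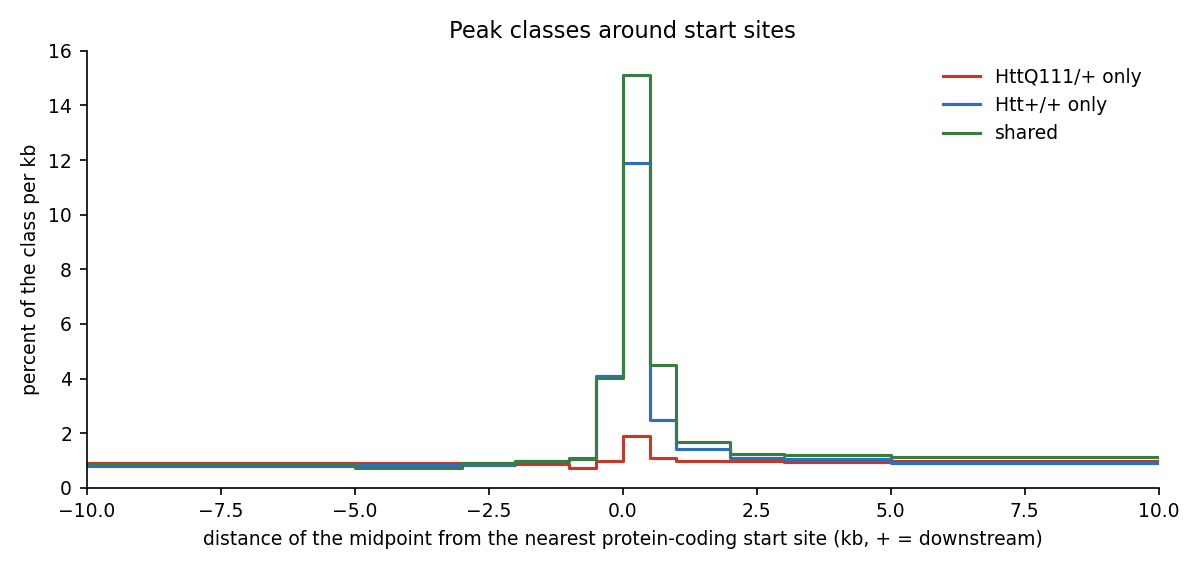
Percent of each peak class per kb by distance of the midpoint from the nearest protein-coding start site, in bins of unequal width, downstream positive. The highest bin is 0 to 500 bp past the start site in all 3 classes, at 15.1% per kb for shared, 11.9% for Htt+/+ only and 1.88% for HttQ111/+ only.

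Along protein-coding genes of at least 5 kb cut into 10 equal parts, the first part held 2.32 times the mean density of the class for shared sites, 2.12 times for Htt+/+ only and 0.909 times for HttQ111/+ only peaks. In the tenth part these values were 1.17, 1.16 and 1.09. Gene ends differed less than start sites. Within 1 kb of a gene end lay 743 HttQ111/+ only and 1011 Htt+/+ only midpoints. After sites at start sites were set aside, 1.70% (1.58% to 1.84%) of HttQ111/+ only, 2.04% (1.90% to 2.19%) of Htt+/+ only and 2.10% (1.57% to 2.81%) of shared midpoints lay within 1 kb of a gene end. From 1 to 2 kb past the gene end the densities were 1.28 times the class mean for HttQ111/+ only, 1.34 times for Htt+/+ only and 1.38 times for shared sites. The last value rests on 19 sites.

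Sequence composition separated the classes in the same way. Windows of 300 bp at the summit had a median G+C of 47.7% in HttQ111/+ only, 50.7% in Htt+/+ only and 53.3% in shared peaks, and 41.7% in windows taken every 50 kb of the genome. A window was called CpG-rich when G+C was over 50% and the observed to expected CpG ratio over 0.6. This held for 1.77% (1.64% to 1.91%) of HttQ111/+ only, 10.7% (10.4% to 11%) of Htt+/+ only and 16.7% (15.2% to 18.3%) of shared windows, against 0.821% of genome windows and 42.7% of all protein-coding promoters. The difference remained at start sites, where 24.3% (21.6% to 27.3%) of HttQ111/+ only windows were CpG-rich, beside 73.2% (71.7% to 74.6%) of Htt+/+ only and 72.9% (67.1% to 77.9%) of shared windows. Away from start sites the shares were 1.23%, 3.92% and 8.78%. Shared sites elsewhere with at least 5 reads in both libraries were CpG-rich in 40.1% (34.1% to 46.4%) of 237 windows.

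Motifs were searched as exact letters on both strands of the same windows. The GC box GGGCGG, which Sp1-family factors bind, was in 4.49% of HttQ111/+ only, 11.7% of Htt+/+ only and 15.3% of shared windows. In promoters of the same length (250 bases before to 50 after the start) it was in 43.8%, and in 50.8% (44.7% to 56.8%) of shared windows at start sites. The CCAAT box CCAAT ran the other way, with 38.9% of HttQ111/+ only, 32.7% of Htt+/+ only and 30.6% of shared windows, against 37.6% of promoters and 40.3% of genome windows. CAGCAGCAG, the repeat unit that is lengthened in HttQ111, was in 2.15%, 3.9% and 5.40% (4.51% to 6.46%) of the windows, 1.69% of promoters and 1.04% of genome windows. At shared start-site sites it reached 10.1% (6.97% to 14.4%). The CAG repeat was thus more frequent in every peak class than in genome windows. The cAMP response element TGACGTCA was in 0.244%, 0.325% and 0.143% of windows, in 2.30% of promoters and in 0.134% of genome windows. The E box CACGTG was in 3.96%, 4.79% and 5.16%, in 7.79% of promoters and in 3% of genome windows. Both were less frequent in the classes than in promoters. The E box was more frequent in every class than in genome windows, and the cAMP response element in the single-genotype classes. In shared windows the latter rests on 3 windows (0.0488% to 0.421%), an interval that covers the genome value. The CA repeat CACACACAC was in 5.09%, 3.88% and 3.40%, in 3.10% of promoters and in 6.08% of genome windows. No motif contains another, though CACGTG and TGACGTCA share the letters ACGT. A match describes the letters in the window and not a bound site.

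Among shared sites at start sites, the 12 with the highest lower fold enrichment were at Eif2b3, Tmem50a, Fbln1, Tmem127, Car10, Klk1b24, Lats2, Avpr1a, Gm13306, Jakmip3, Dnaja2 and Lrfn4. This choice used the fold enrichments, which are given as a description. Their folds ran from 5.61 to 9.75 in HttQ111/+ ASO and from 5.96 to 10.3 in Htt+/+ ASO.

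Eif2b3, a subunit of the exchange factor that recharges the translation initiator eIF2, headed the order. Its site at chr4:116692004-116692372 had a fold of 8.34 from 9 reads in HttQ111/+ ASO and 9.31 from 7 reads in Htt+/+ ASO, with no peak in either untreated library. Tmem50a, a transmembrane protein gene, had an intronic site at chr4:134470529-134470979. Folds there were 9.75 in HttQ111/+ ASO, 7.27 in Htt+/+ ASO, 5.19 in untreated Htt+/+ and 13.7 in untreated HttQ111/+, so a peak was present in all 4 libraries and the HttQ111/+ value was the higher one with and without ASO. Fbln1, which codes for the matrix protein fibulin-1, was a peak in all 4 libraries as well. At chr15:85036264-85036838, in an untranslated or non-coding exon, its folds were 6.92, 6.94, 5.09 and 6.86 in the same order. The 2 ASO libraries were alike there, with 10 and 9 reads.

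Lats2, a kinase of the Hippo pathway, and Dnaja2, an Hsp40 co-chaperone, were the remaining members of the 12 with a peak in all 4 libraries. The Lats2 site at chr14:58318201-58318723 lay in a coding exon, with folds of 5.97 in HttQ111/+ ASO, 9.21 in Htt+/+ ASO, 4.53 in untreated Htt+/+ and 5.84 in untreated HttQ111/+. The Dnaja2 site at chr8:88078747-88079430, also in a coding exon, had 5.65, 7.23, 4.53 and 5.84. Htt+/+ ASO was thus the highest of the 4 at both genes. At Avpr1a (chr10:121885560-121886113) the folds were 5.89 in HttQ111/+ ASO, 10.3 in Htt+/+ ASO and 5.84 in untreated HttQ111/+, with no peak in untreated Htt+/+. At Car10 (chr11:92959485-92959893) HttQ111/+ ASO was the higher library, with 8.59 against 6.42. Lrfn4, a synaptic adhesion gene, lies inside Pcx on the annotation, and its site at chr19:4615176-4615495 had the most reads of the 12, 15 in HttQ111/+ ASO and 12 in Htt+/+ ASO.

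Away from start sites, 7 of the 8 highest ranked shared sites were intergenic and 1 was in a coding exon of Clec16a. Among those described here, the Efha1 region had a peak in all 4 libraries, with 6.99 in HttQ111/+ ASO, 10.3 in Htt+/+ ASO, 5.82 in untreated Htt+/+ and 11.8 in untreated HttQ111/+. The RP23-108F2.6 region at chr17:36315908-36316365 had 7.45 in HttQ111/+ ASO, 10.9 in Htt+/+ ASO and 10.2 in untreated Htt+/+. The Gm11733 region at chr11:117362134-117362556 had 8.25 and 7.94 in the ASO libraries and no peak without ASO. Slc16a1, the lactate transporter MCT1, had a site at -6971 bp with 7.02 and 7.11.

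The sites with the most reads were of another kind again. In both ASO libraries 29 shared sites had at least 20 reads, and all 29 were also peaks in both untreated libraries. Of these, 18 were intergenic and 4 at start sites. Folds were low, 1.40 to 4.03 in HttQ111/+ ASO and 1.73 to 5.45 in Htt+/+ ASO, and 28 of 29 were higher in Htt+/+. The merged input was high at every one of them, from 14.8 to 231.1 times the genome-wide value. A cluster on chr17 from 39979949 to 39985764, far from the nearest start site of Pgk2, gave 4 of the sites, with 156 and 174 reads at the first. Another group lay at the start of the chr9 assembly near Gm10722, with 150 and 137 reads, and 5 sites lay near Sfi1 on chr11. In 31.0% (17.3% to 49.2%) of the 29 windows fewer than 60% of 6-letter words were distinct, against 3.49% of all shared, 1.21% of HttQ111/+ only and 1.92% of Htt+/+ only windows and 1.40% of genome windows.

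Fold enrichment at shared sites was more often higher in Htt+/+. This was so at 1467 of 2091 sites, or 70.2% (68.2% to 72.1%), with a median log2 ratio of HttQ111/+ to Htt+/+ of -0.30 and an interval from the 10th to the 90th percentile of -0.85 to 0.36. Median folds were 4.41 in HttQ111/+ ASO and 5.0 in Htt+/+ ASO, while the median read number was 3 in both. The share was 77.9% (72.5% to 82.5%) at start sites and 69.1% (66.9% to 71.1%) elsewhere. When each fold was divided by its library's median over the shared sites, 55.4% were higher in Htt+/+. Reads divided by library depth gave 64.0%, with a median log2 ratio of -0.16. Equal read numbers count as higher in Htt+/+ by reads divided by depth. By fold this holds where both libraries are at the genome-wide background, and not at every site with a higher local input. Over the genome-wide background 3 reads are a fold of 4.41 in HttQ111/+ ASO and 5.47 in Htt+/+ ASO. By recovered reads the HttQ111/+ ASO library was the deeper one. The 70.2% and the 64.0% therefore depend on how the libraries were scaled. The division by the library median takes out the difference between the median folds. It thereby moves the share toward the middle by construction, although it does not centre the ratios of the sites exactly. The 55.4% is therefore not a separate check of the direction. Total reads at shared sites were 10646 in HttQ111/+ ASO and 10587 in Htt+/+ ASO.

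**Figure D4:**
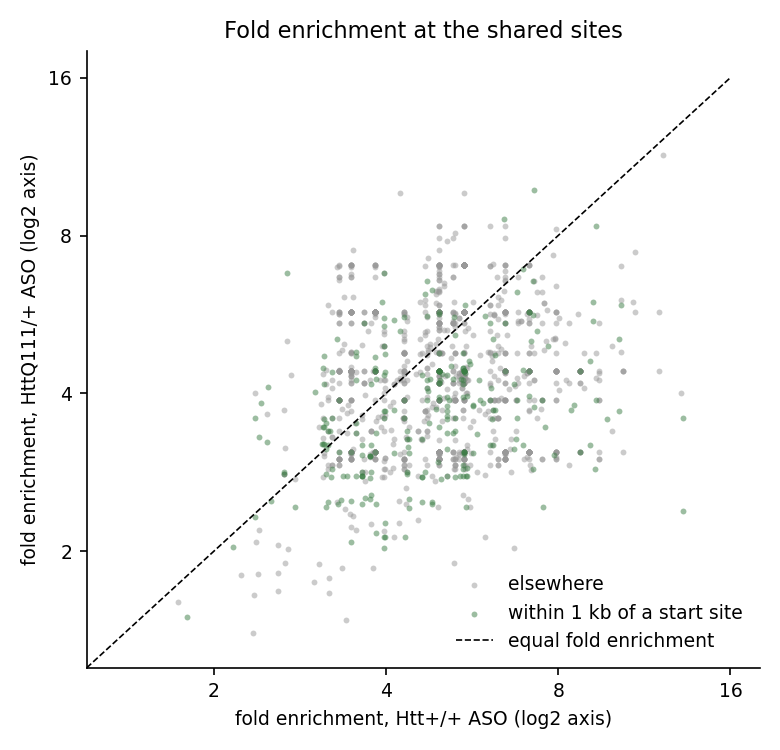
Deposited fold enrichment of the 2091 shared sites in HttQ111/+ ASO against Htt+/+ ASO, both on log2 axes, with 258 start-site sites in green and the dashed line for equal values. Most points, 70.2%, lie below the line, and the rows and columns of points come from whole read numbers.

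The ends of this range are given as a description. Ccbe1, a gene of lymphatic vessel growth, had the highest HttQ111/+ to Htt+/+ ratio, with 6.78 from 8 reads against 2.69 from 6 reads at its start site (log2 ratio 1.33), and a peak of 6.03 in untreated HttQ111/+. The next were intergenic near Aqp8 (9.64 against 4.23) and Gm7935 (7.52 against 3.50). Ifngr2, a subunit of the interferon gamma receptor, had the lowest ratio. Its intronic site near the start had 2.39 from 5 reads in HttQ111/+ ASO and 13.2 from 13 reads in Htt+/+ ASO (log2 ratio -2.47), with 5.90 in untreated Htt+/+ and 12.4 in untreated HttQ111/+. Fam185a was next with 3.59 against 13.2, and with 8.94 and 9.21 in the untreated libraries. Egr4, an immediate early transcription factor, had 2.03 against 6.71 in its coding exon, with 6.01 in untreated Htt+/+ and 7.68 in untreated HttQ111/+. The remaining site of the 4, intergenic near Gm9897, had 3.10 against 10.4, with 5.82 in untreated Htt+/+ and no peak in untreated HttQ111/+. The untreated libraries were thus ordered differently at Gm9897 than at the other 3 sites.

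Ranked by fold, 5 of the 6 highest HttQ111/+ only peaks were intergenic, whereas of those with at least 8 reads 18.9% were intergenic and 37.9% lay within 1 kb of a start site. The nearest start sites of the 5 were those of Defb29, Gm13138, Dagla, D19Ertd737e and Gm3662. The first, 10772 bp from Defb29, a beta-defensin gene, had a fold of 12.2 from 9 reads and no peak in either untreated library. The other was in a coding exon of Chrna9, the nicotinic receptor subunit alpha 9, at 9.64 from 7 reads, 57 bp past its start site. Only the Gm13138 peak, at 10.1, was also found without ASO, at 7.87 in untreated Htt+/+ and 4.38 in untreated HttQ111/+.

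The 6 highest Htt+/+ only peaks by fold included 3 within 1 kb of a start site. Klhl11, which codes for a kelch-family adaptor of ubiquitin ligases, had 15.1 from 15 reads in a coding exon 141 bp past its start, with 3.43 in untreated Htt+/+ and 3.55 in untreated HttQ111/+. Ppp1r12a, the myosin phosphatase targeting subunit, had 14.1 from 14 reads in an intron 343 bp past its start, with 7.51 in untreated Htt+/+ and no peak in untreated HttQ111/+. Igfbp2, an insulin-like growth factor binding protein, had 13.2 from 13 reads 191 bp past its start, with 11.3 in untreated HttQ111/+ and no peak in untreated Htt+/+. The others were an intronic peak of Ppp1r9a, the actin-binding neurabin (14.1 from 14 reads, with no untreated peak), an intergenic peak near Gm9969 (14.4) and an intronic peak of Gm3002 (13.9).

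Sites shared by the genotypes under ASO were more often peaks without ASO than single-genotype peaks were, though most had no untreated peak. Of shared sites 11.6% (10.3% to 13.0%) had a peak in both untreated libraries, 22.5% in a single untreated library and 65.9% in neither. HttQ111/+ only peaks had a peak in both in 0.764% and in neither in 91.8%, and Htt+/+ only peaks in 3.13% and 84.3%. At shared start-site sites the percentage in both was 38.0% (32.3% to 44%), and in shared coding exons 29.6%, against 7.07% of shared intergenic sites. With at least 5 reads in both ASO libraries it was 41.1%, and with 2 to 4 reads in both 2.95%. Htt+/+ only peaks had a peak in untreated Htt+/+ in 8.61% and in untreated HttQ111/+ in 10.2%, and HttQ111/+ only peaks had 4.36% and 4.62%. Both classes thus met the untreated HttQ111/+ list more often, which is also the longer list, with 46749 peaks against 43435.

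Read from the untreated side, 4567 sites were shared by the genotypes without ASO. Of these, 246 (5.39%, 4.77% to 6.08%) had peaks in both ASO libraries, 277 (6.07%) in HttQ111/+ ASO alone, 1198 (26.2%) in Htt+/+ ASO alone and 2846 (62.3%) in neither. At the 1283 start sites among them, peaks in both ASO libraries were found at 7.56%, in HttQ111/+ ASO alone at 3.98%, in Htt+/+ ASO alone at 45.2% (42.5% to 47.9%) and in neither at 43.3%. For the 712 sites with at least 8 reads in both untreated libraries the same numbers were 94 (13.2%), 19, 367 (51.5%) and 232 (32.6%). Start-site peaks of untreated cortex were thus found again in Htt+/+ ASO far more often than in HttQ111/+ ASO, and the low number of strong peaks in the HttQ111/+ ASO library as a whole moved with this. Its part in the result was not tested.

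Genes were followed through 21281 protein-coding genes. Within 20 kb of the start site, 5.92% had a shared site, 50.4% an HttQ111/+ only peak and 58.5% an Htt+/+ only peak. Peaks of both libraries without a shared site lay near 5983 genes, HttQ111/+ ASO peaks alone near 4071, Htt+/+ ASO peaks alone near 5627 and none of either near 4340. The peak numbers of the single-genotype classes were nearly equal, and the gene numbers were lower for HttQ111/+. Within 1 kb of a start site, 1.33% of genes had a shared site, 4.20% an HttQ111/+ only peak and 17.6% an Htt+/+ only peak. Counting any peak, 410 genes had peaks of both ASO libraries within 1 kb, 758 of HttQ111/+ ASO alone and 3581 of Htt+/+ ASO alone. In untreated cortex these were 1651 with both, 2882 with HttQ111/+ alone and 1615 with Htt+/+ alone, and 164 genes had a start-site peak in all 4 libraries.

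Of all genes 17.6% had an Htt+/+ only start-site peak, and the lists had shares from 4.79% to 39.3%. The share was 39.3% of 28 cortical neuron markers (23.6% to 57.6%), 34.3% of 35 striatal identity genes (20.8% to 50.8%), 34.1% of 41 glutamate and GABA receptor genes (21.6% to 49.5%), 33.3% of 42 HTT partners and transcription regulators (21.0% to 48.4%) and 30.6% of 62 Polycomb and chromatin modifier genes (20.6% to 43.0%). Potassium channels had 28.3% of 92 (20.1% to 38.2%). The intervals reached 17.6% for calcium and sodium channels (27.0% of 37, 15.4% to 43.0%), synaptic adhesion, scaffold and vesicle genes (25.9% of 81, 17.6% to 36.4%), Hox genes (25.6% of 39, 14.6% to 41.1%), immediate early genes (29.2% of 24, 14.9% to 49.2%), ribosomal protein genes (22.4% of 76, 14.5% to 32.9%) and Zfp genes (14.5% of 358, 11.3% to 18.6%). Glial and vascular markers had 2 of 24, and olfactory receptors, which the cortex does not use, 4.79% of 1106 (3.68% to 6.21%). HttQ111/+ only peaks stood at the start sites of 2 cortical neuron markers, 1 striatal identity gene, 1 receptor gene, 4 HTT partners, 4 Polycomb and chromatin genes, 3 synaptic, 3 potassium channel, 5 calcium and sodium channel, 2 Hox, 2 glial and vascular, 2 ribosomal, 9 Zfp and no immediate early genes, and of 38 olfactory receptors, or 3.44%, beside 4.20% of all genes. As shares, calcium and sodium channels were the highest at 13.5% (5.91% to 28.0%), followed by HTT partners at 9.52% (3.77% to 22.1%). Within 20 kb, striatal identity genes had an HttQ111/+ only peak in 77.1% (61.0% to 87.9%, all genes 50.4%) and an Htt+/+ only peak in 74.3% (57.9% to 85.8%, all genes 58.5%).

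**Figure D5:**
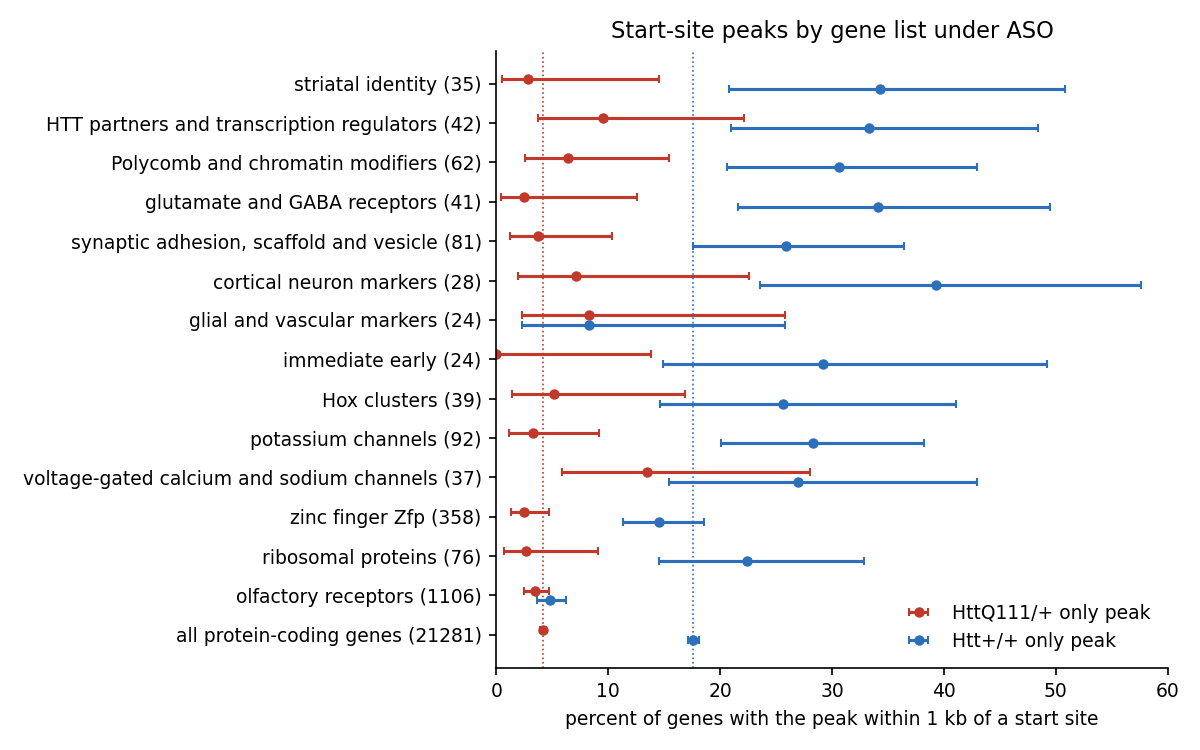
Percent of the genes of each list (number of genes in parentheses) with an HttQ111/+ only or an Htt+/+ only peak within 1 kb of a start site, with 95% Wilson bars and dotted lines at the shares of all protein-coding genes, 4.20% and 17.6%. The Htt+/+ only share is 39.3% for cortical neuron markers and 4.79% for olfactory receptors.

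With at least 8 reads, 0.540% of all genes had an HttQ111/+ only and 7.83% an Htt+/+ only start-site peak. The genes named here were chosen from the lists after their values were seen. For Htt+/+ only the cortical list included Nefh, Otx1, Mapt and Rbfox3, and Rbfox3, which codes for the neuronal marker NeuN, had 9 reads and a fold of 4.36. The striatal list held Slc35d3, Ebf1, Ppp1r1b, Pde10a and Ptpn5, which were 5 of its 35 genes. That share, 14.3% (6.26% to 29.4%), had an interval that covered the 7.83% of all genes. Intervals of receptors (9.76% of 41, 3.86% to 22.5%) and of calcium and sodium channels (13.5% of 37, 5.91% to 28.0%) covered it too. Cortical neuron markers had 17.9% of 28 (7.88% to 35.6%) and HTT partners 16.7% of 42 (8.32% to 30.6%). Polycomb and chromatin genes had 16.1% of 62. Among HTT partners, Rest, the repressor of neuronal genes whose localization depends on HTT, had 8 reads and a fold of 5.16, and Zdhhc17, the palmitoyl transferase also known as HIP14, had 9 reads and 3.82. Among receptors and channels, Grin1, the obligatory NMDA receptor subunit, had 8 reads and 8.22 with a peak in both untreated libraries, and Cacna1a, the P/Q-type calcium channel, had 10 reads and 9.49 with a peak in both as well. Polycomb genes included Pcgf2 (6.74 from 11 reads) and Aebp2 (4.41 from 13 reads). Without ASO the peaks at Rest, Ppp1r1b, Pcgf2, Otx1 and Rbfox3 were found only in HttQ111/+. Those at Ebf1 and Pde10a were found only in untreated Htt+/+. Nefh, Slc35d3 and Aebp2 had a peak in both untreated libraries, and Mapt, Ptpn5 and Zdhhc17 in neither. HttQ111/+ only start-site peaks of at least 8 reads were at Ppp1r16b (3.04 from 11 reads), the chromatin remodeller Smarca4 (2.79 from 8 reads), the synaptic adhesion gene Slitrk5 (3.62 from 8 reads), the calcium channel subunit Cacnb2 (4.06 from 9 reads), Rps6 (5.59 from 8 reads) and 3 Zfp genes. Of the named genes, Slitrk5 had an untreated peak only in Htt+/+, Ppp1r16b and Rps6 only in HttQ111/+, and Smarca4 and Cacnb2 in neither.

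Shared sites near list genes were few, with shares on both sides of the 5.92% of all genes. Within 20 kb they were found for 7 of 62 Polycomb and chromatin genes (11.3%, 5.58% to 21.5%), 6 of 39 Hox genes (15.4%, 7.25% to 29.7%), 7 of 76 ribosomal protein genes, 5 of 92 potassium channels, 3 of 42 HTT partners, 3 of 41 receptors, 2 of 37 calcium and sodium channels, 2 of 35 striatal identity, 2 of 24 glial and vascular, 2 of 24 immediate early, 1 of 81 synaptic and 1 of 28 cortical neuron genes, 17 of 358 Zfp genes and 38 of 1106 olfactory receptors (3.44%, 2.51% to 4.68%). Neighbouring Hox genes and olfactory receptors share sites, since the windows of neighbours such as Hoxd3, Hoxd4, Hoxd8 and Hoxd9 overlap.

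Within 1 kb of the start, where 1.33% of all genes had a shared site, the lists included Rcor1, Cbx2, Olig1, Hoxd3, Kcnn2, Kcnv2, Rps6, 4 Zfp genes and 7 olfactory receptors. Rcor1, the corepressor CoREST that works with REST, had 3.19 from 8 reads in HttQ111/+ ASO and 3.77 from 6 reads in Htt+/+ ASO at chr12:112278036-112278396, with 4.57 in untreated HttQ111/+ and no peak in untreated Htt+/+. Cbx2, a subunit of Polycomb repressive complex 1, had 2.46 and 3.30 at chr11:118884127-118884935 and no untreated peak. Kcnn2, the SK2 calcium-activated potassium channel, had a peak in all 4 libraries, with 4.70 in HttQ111/+ ASO, 3.83 in Htt+/+ ASO, 5.0 in untreated Htt+/+ and 6.16 in untreated HttQ111/+. Hoxd3 had 2.84 and 3.64, Olig1, an oligodendrocyte lineage factor, 2.13 and 4.32, and Kcnv2 3.89 and 6.77. Zfp598, a ubiquitin ligase of stalled ribosomes, had a peak in all 4 libraries (3.79 and 5.67 with ASO), as had Zfp866 (4.17 and 3.77), while Zfp318 had 4.77 and 5.45 and Zfp316 2.56 and 3.77. Rps6 had 5.44 and 6.45 at a site -523 bp from its start with 4 reads in each, and the 7 olfactory receptors had at most 4 reads in either library.

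Htt itself (chr5:35104389-35255183) had no shared site. From 20 kb upstream to 1 kb past the gene it held 5 HttQ111/+ only and 4 Htt+/+ only peaks, where the genome-wide density would give 2.83 and 2.87, and 4 and 1 peaks in untreated Htt+/+ and HttQ111/+. All 9 had 2 to 4 reads and none lay within 1 kb of a start site. A peak number at Htt does not measure HTT. Ppp1r1b (chr11:98209718-98219110) codes for the dopamine signalling protein DARPP-32. The same window around it held a shared site with 4.17 from 9 reads in HttQ111/+ ASO and 4.13 from 8 reads in Htt+/+ ASO. That site was nearest to the start of the neighbouring gene Neurod2, at -8960 bp. The window also held 3 Htt+/+ only peaks of 7 to 10 reads and no HttQ111/+ only peak. Of the 3, 1 lay 532 bp past the Ppp1r1b start at 3.09 from 9 reads. The others were nearest to the Neurod2 start, at 846 bp and -4634 bp. Pde10a, the striatal phosphodiesterase, had 7 peaks of each single-genotype class and no shared site, beside 7.94 and 8.04 from genome-wide density. Both of its start-site peaks were Htt+/+ only, at 3.97 from 5 reads and 5.61 from 10 reads, while its 7 HttQ111/+ only peaks were intronic with 2 or 3 reads. Rgs9, a striatal regulator of G-protein signalling, had 1 HttQ111/+ only and 3 Htt+/+ only peaks with 3 or 4 reads and no shared site.

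By chromosome, shared sites ranged from 0.639 per Mb on chromosome 18 to 1.23 per Mb on chromosome 7, and chromosome 7 was also the most gene-dense, with 14.6 protein-coding genes per Mb. The HttQ111/+ only to Htt+/+ only ratio was lowest there, at 0.864, and next lowest on chromosomes 17 (0.908) and 5 (0.919). It was highest on chromosomes 2 and 14, at 1.07. Pseudogenes were overlapped by 1.43% of shared sites, 0.611% of HttQ111/+ only and 0.828% of Htt+/+ only peaks, and long intergenic non-coding RNA genes by 2.58%, 1.62% and 1.74%.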

How the data were processed

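HTT ChIP-seq of mouse cortex was deposited as 1 peak list for each of 4 ChIP libraries, and the 4 input samples were used only through the merged control of the authors. The authors aligned reads with HISAT2, down-sampled ChIP reads to match the smallest library, and called peaks per library with MACS2 against the merged input. The depths recovered here were still unequal, at 1.36 reads per kb in HttQ111/+ ASO and 1.22 in Htt+/+ ASO. The reason was not examined. The submitters' processing notes name bcl2fastq 2.17. The deposited columns hold the summit offset, the ratio of ChIP to input there (fold enrichment), its −log10 p-value and −log10 q-value, and a score equal to the p-value column multiplied by 10. The labels name mm9 and the methods mm10. Of shared sites 12.6% lay within 1 kb of an outer boundary of a protein-coding gene (start sites elsewhere are those of every transcript) under NCBIM37 and 4.40% under GRCm38, and 0 peaks passed a chromosome end, so mm9 with GENCODE vM1 was used.

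Whole reads at the summit were recovered from fold enrichment and p-value with a scaling factor per library searched between 2.0 and 4.0 (2.6686 and 2.9742 for the ASO libraries, 100.0% of peaks matched within 0.01 of the −log10 p-value), which was tested on simulated data. 1 shared site had no matching read number. Shared sites were joined peaks with 1 bp of overlap on chromosomes 1 to 19. Midpoints were ranked promoter, coding exon, other exon, intron, intergenic. Named sites were the 12 shared sites at start sites and the 8 elsewhere with the highest lower fold, the 4 highest and 4 lowest ratios, the 6 strongest peaks of each single-genotype class, list members with a shared start-site site, and Htt, Ppp1r1b, Pde10a and Rgs9. The members and the gene lists were chosen with earlier results of these data known. Sets with 8 or 20 reads, CpG-rich and repeated windows, the promoters shown and the input background were added after the values were seen. The genome copy marks no repeats, so a repeat-masked share was not computed. 3 list entries (Kat6a, Kat6b and Map2) were not in the annotation under those names. Scripts ran under matplotlib 3.10.9, scipy 1.17.1, pandas 2.3.3, numpy 2.4.6 and Python 3.11.15. Some named sites and list genes are not reported here.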

Additional observations from a re-analysis of the deposited data

Results flagged for a closer look

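The genotype ratio of stronger peaks went in opposite directions with and without ASO. For peaks of at least 5 reads the HttQ111/+ to Htt+/+ ratio was 0.616 with ASO and 1.34 in untreated cortex, and for at least 8 reads it was 0.209 and 1.39. Each ratio compares 2 libraries, and the difference between the ratios was not tested.

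Peaks outside chromosomes 1 to 19 entered no class. HttQ111/+ ASO had 1085 and Htt+/+ ASO 1403 of them, and any peak list of this kind holds some. They were not analysed further. Of these, 692 and 823 were on X and Y and 393 and 580 on unplaced sequence.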

How the results depend on the processing

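No paired analysis was possible because every group was 1 library. Alternatives based on 8 reads and on the input background were chosen after seeing the data. Of 55 alternative values 21 stayed within the counting interval (for gene numbers, within 1.5 times) and 34 moved. A direction was defined only for the HttQ111/+ only to Htt+/+ only ratio and for the share of higher folds in Htt+/+. No alternative value of these results changed direction, and the other results could not show such a change. The shared percentage of HttQ111/+ ASO peaks was 8.59% among peaks of 5 reads or more, 32.4% among those of 8 or more and 4.80% at q below 0.01. It was 4.22% after peaks were resized to 200 bp, 4.71% by summits up to 250 bp apart and 3.21% where each peak had to cover 50% of the other (reciprocal overlap). For Htt+/+ ASO peaks it was 4.60% with that q, 6.67% with at least 8 reads, 3.17% with reciprocal overlap, 4.65% by summits and 4.17% resized. The HttQ111/+ only to Htt+/+ only ratio was 0.956 with that q, 0.594 with 5 reads and 0.152 with 8 reads. The start-site share of shared sites was 14.9% at that q, 44.5% with 5 reads, 14.5% with reciprocal overlap and 7.11% with an input background of at most 5 times the genome-wide value. That of HttQ111/+ only peaks was 2.54% with that q, 8.55% with 5 reads and 2.18% with that background, and that of Htt+/+ only peaks 11.3%, 36.9% and 5.76%. The share of shared sites with the higher fold in Htt+/+ was 76.4% at that q, 79.5% with 5 reads, 64.0% by reads per depth, 66.7% by −log10 p-value and 55.4% by fold over the library median. A peak in both untreated libraries was found for 13.9% with that q, 37.5% with 5 reads and 13.8% with reciprocal overlap. Genes with a shared site numbered 553 with 5 reads and 423 within 5 kb, against 1260. With most peaks at 2 to 4 reads, a missing peak does not show that a site was unbound at this depth.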
